A study of Mus musculus with 9 samples.

Results

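Apolipoproteins are the protein coat of the particles that carry fat and cholesterol in blood, and the liver makes most of them. Their messages were measured in livers of 9 female Crlj:CD1(ICR) mice, an outbred stock, bought at 9 weeks of age and quarantined for 1 week, with 1 Affymetrix array per mouse. A diet with 5000 ppm permethrin, a pyrethroid insecticide, was fed to 3 mice for 2 weeks. A diet with 5000 ppm clofibrate, a fibrate drug that activates the nuclear receptor PPAR alpha, was fed to 3 other mice for 2 weeks. The 3 control mice received the diet with 0 ppm of either chemical for the same time. The description label of the treated samples names rats, whereas their organism, source name and strain name mice, and all 9 were treated as mouse samples. The 10 genes are Apoa1, Apoa2, Apoa4, Apoa5, Apob, Apoc1, Apoc2, Apoc3, Apoe and Apom, of 18193 genes with a probe set of their own symbol on the array. They were chosen by name, with earlier results of these data known. Each is represented by its probe set with the highest mean signal over the 9 arrays. All 10 passed the filter on dim probe sets, as did 12477 genes in all.

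The liver secretes triglyceride-rich particles (VLDL) built around 1 molecule of ApoB, and starts high-density lipoprotein (HDL) particles with ApoA-I and ApoA-II. Small exchangeable proteins then move between particles and set their fate. ApoC-II activates lipoprotein lipase, ApoC-III restrains it and slows uptake, ApoA-V promotes lipolysis, and ApoE binds the receptors that clear remnants. In rodents, fibrates are known for lowering plasma triglycerides and for acting on several of these genes through PPAR alpha.

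Most of the family lies in 2 gene clusters. In the mouse build GRCm38.p6, Apoa1, Apoc3, Apoa4 and Apoa5 follow each other on chromosome 9 between bases 46228630 and 46271921. Apoc2, Apoc1 and Apoe lie on chromosome 7 between bases 19671579 and 19701310. Apoa2 is on chromosome 1, Apob on chromosome 12 and Apom on chromosome 17. Gene promoters, each taken as 250 bases before to 50 bases after a transcription start, were found in the RefSeq table of that build for 8 members with 12 starts. The promoters of 4 members are shown because their genes differ in response. Apoa4 and Apom had the largest differences of the family, Apoa1 is a cluster neighbour of Apoa4 with a small difference, and Apoc2 holds the only match to a spaced repeat. The windows are, on GRCm38.p6, chr9:46240594-46240893 (plus strand) for Apoa4, chr17:35131752-35132051 (minus strand) for Apom, chr9:46228380-46228679 (plus strand) for Apoa1 and chr7:19677892-19678191 (minus strand) for Apoc2. Capitals mark matches to any motif searched.
Apoa4: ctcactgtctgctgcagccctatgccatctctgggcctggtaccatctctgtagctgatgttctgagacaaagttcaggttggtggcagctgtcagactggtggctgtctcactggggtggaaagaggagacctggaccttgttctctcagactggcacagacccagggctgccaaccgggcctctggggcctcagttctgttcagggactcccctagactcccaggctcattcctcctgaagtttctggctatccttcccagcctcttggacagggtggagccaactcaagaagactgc
Apom: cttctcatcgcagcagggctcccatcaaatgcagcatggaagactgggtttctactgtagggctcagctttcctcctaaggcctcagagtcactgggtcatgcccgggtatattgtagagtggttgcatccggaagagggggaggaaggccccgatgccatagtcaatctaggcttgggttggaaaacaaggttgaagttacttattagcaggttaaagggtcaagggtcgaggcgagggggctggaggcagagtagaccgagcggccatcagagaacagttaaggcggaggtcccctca
Apoa1: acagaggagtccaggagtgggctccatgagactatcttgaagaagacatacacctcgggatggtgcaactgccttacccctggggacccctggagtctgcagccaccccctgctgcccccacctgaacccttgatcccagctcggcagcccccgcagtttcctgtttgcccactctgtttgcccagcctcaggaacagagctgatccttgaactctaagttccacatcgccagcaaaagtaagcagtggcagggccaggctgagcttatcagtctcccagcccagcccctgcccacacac
Apoc2: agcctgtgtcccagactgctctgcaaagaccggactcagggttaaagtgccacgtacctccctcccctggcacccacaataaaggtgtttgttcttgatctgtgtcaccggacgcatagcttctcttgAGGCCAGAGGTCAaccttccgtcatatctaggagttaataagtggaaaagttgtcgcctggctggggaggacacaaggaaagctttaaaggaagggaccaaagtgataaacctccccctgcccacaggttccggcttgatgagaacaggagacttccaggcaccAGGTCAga

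The motifs were searched on both strands. The nuclear receptor hexamer AGGTCA was found in 2 of the 12 member promoters, those of Apoa2 and Apoc2, and in 16.3% of the 32851 promoters of the table. The same hexamer repeated after 1 spacer base, as PPAR alpha binds it, was in 0 member promoters and 0.0396% of all. The looser form, AGGNCA repeated after 1 spacer base, whose matches can overlap the hexamer, was in the Apoc2 promoter from base -122 to -110 before the start, and in 0.381% of all. The motif CAAAGNCCA was in 0 of 12 and 1.98% of all, and TATAAA was in 5 of 12, in Apoa2, Apoa5, Apob and Apoe, and 13.6% of all. The 2 Apoa5 promoters overlap and share the same TATAAA, which is counted in both. A match describes letters in this window only.

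Signals are MAS5 values on a linear scale, with nearly the same trimmed mean on every array as deposited. They were tested as log2(signal + 3.35) with limma, in which p-values were adjusted by Benjamini-Hochberg over 24548 tested probe sets, with a threshold of 0.05. The text gives a mean ± SD for signals and ± SE for log2 changes, with n = 3 mice per group throughout. Signals of different probe sets are not compared as amounts of RNA. In RNA from whole liver, fewer cells of a type and less RNA per cell cannot be told apart.

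The arrays differed in their brightest values. Each array's top signal lay at 12792 to 13409 with permethrin, at 10714 to 12058 with clofibrate and at 14387 to 14899 in controls, with no overlap between groups. Median signals were 14.3 to 15.5, 13.4 to 17.9 and 15.2 to 17.4 in the same order. Spiked hybridization controls averaged a log2 signal of 9.79 to 10.15 with permethrin, 9.68 to 9.92 with clofibrate and 9.94 to 10.26 in controls. The ratio of the 3' to the 5' probe set of Gapdh, a sign of RNA quality, was 0.835 to 0.904 with permethrin, 0.856 to 0.894 with clofibrate and 0.912 to 1.04 in controls. The 18S ribosomal RNA probe set read 33.4 to 95.1 with permethrin, 47.1 to 68.6 with clofibrate and 122 to 194 in controls. Both separated all controls from all treated arrays, as many of the apolipoproteins did, and their part in the results was not tested. Among the apolipoproteins 7 of the 10, Apoa1, Apoa2, Apoa5, Apob, Apoc1, Apoc3 and Apoe, were among the brightest 450 of 45037 probe sets (1%) on all 9 arrays. Apoa1 ranked from 1 to 5 among all probe sets and reached 85.6% to 100% of the highest signal of its array. Apoa2 reached 61.9% to 73.5%, Apoe 60.9% to 72.0% and Apoc3 56.3% to 66.9%. Apom was in that brightest 1% on 3 of 9 arrays, and Apoc2 and Apoa4 on 0. Apoa4 was the dimmest member, at 4.95% to 18.7% of the highest signal.

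Clofibrate, the fibrate, was set against control first. All 10 members had a lower mean with clofibrate, as did 55.3% of all genes, and 7 passed the test, all of them lower: Apoa4, Apom, Apoc2, Apoa2, Apoe, Apoc3 and Apoa1. Over all 12477 genes, 3.8% were called lower and 7.02% called in either direction. The members' median log2 change was -0.43, against -0.04 for all genes. In all 10 members the clofibrate and control mice did not overlap, with clofibrate lower, as they did in 15.6% of all genes. Apoa4 and Apom stood well below the rest, and the other 8 members lay between -0.25 and -0.48.

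With permethrin against control, Apoa4 fell, as 1 of 10 members past the threshold, where 0.85% of all genes were called lower and 2.13% called in either direction. At an unadjusted p under 0.05, 6 members were lower and 0 higher, where 8.89% of all genes were lower. The members' median log2 change was -0.24, against -0.04 for all genes. Permethrin and control mice did not overlap in 8 members, with permethrin lower in each, as in 13.2% of all genes. Both comparisons use the same 3 control mice.

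Permethrin against clofibrate tests the difference between the treatments. All 10 members had a higher mean with permethrin, as did 49.3% of all genes, with a median log2 difference of 0.20 against -0.01 for all genes. limma called 0 of 10, where 0.737% of all genes were called, and 4 members had an unadjusted p under 0.05, namely Apoa4, Apom, Apoe and Apob, all higher with permethrin, as were 6.59% of all genes. The treatments did not overlap in Apoa2, Apoe and Apom, 3 of 10 members, with permethrin higher, as in 9.08% of all genes. The order of means was clofibrate lowest, permethrin between and control highest in 9 of 10 members, with Apob as the exception. The same order held in 23.2% of all tested genes and in 76 of 92 of the brightest 100 probe sets that are not of the members (82.6%).

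**Figure D1:**
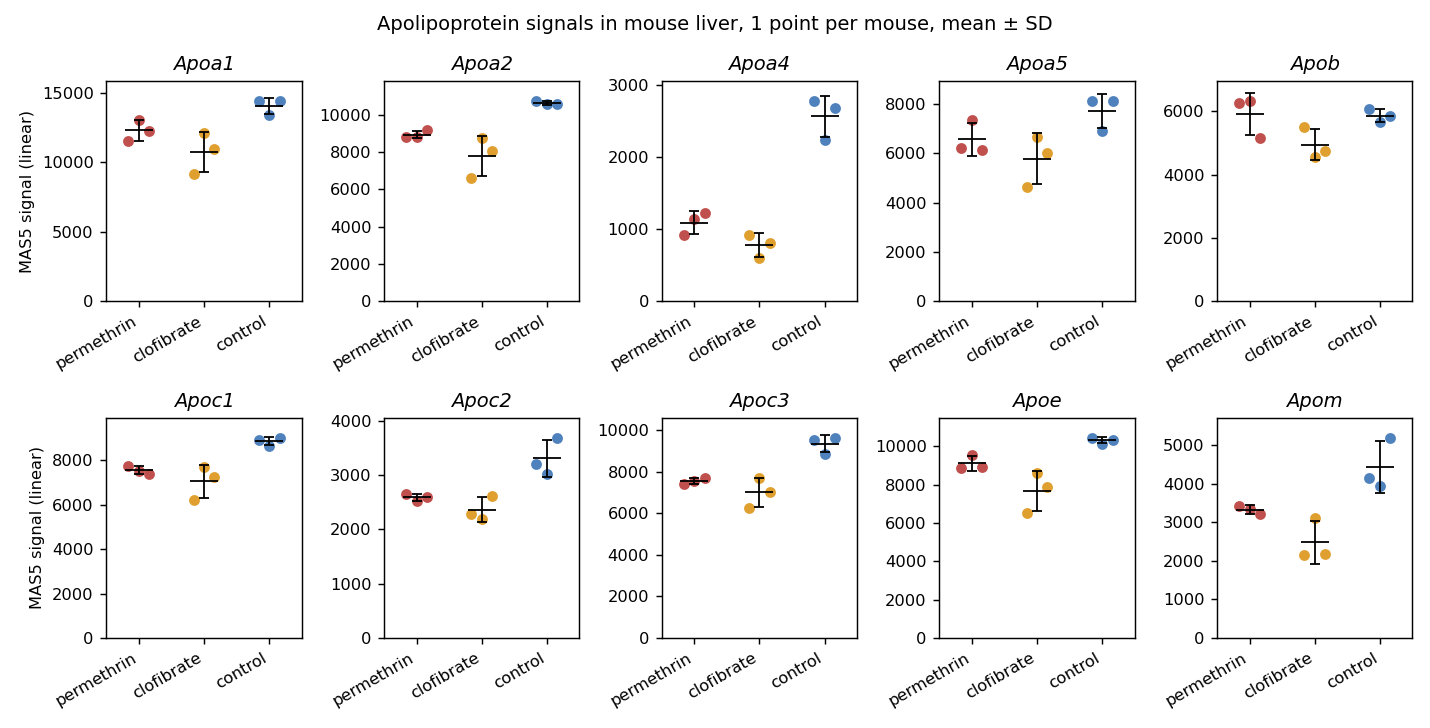
MAS5 signal (linear axis from 0) of the 10 apolipoproteins, with 1 point per mouse, the mean as a horizontal line and the SD as whiskers, for permethrin, clofibrate and control. The 6 treated mice lie far below the 3 controls for Apoa4, with at most 1224 in treated mice and at least 2237 in controls.

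Among the proteins of HDL, Apoa1 encodes the main structural protein and the activator of the enzyme LCAT. Its signals were 11527, 13032 and 12259 with permethrin, 9172, 12058 and 10932 with clofibrate, and 14381, 13394 and 14387 in controls. Every treated mouse was below every control, and permethrin replicate 2 came nearest to the controls. Apoa1 fell 1.32-fold with clofibrate (log2 change -0.40 ± 0.10, limma adjusted p = 0.0444), the call nearest to the threshold. With permethrin its log2 change was -0.20 ± 0.10 (limma adjusted p = 0.435). Of the 4 probe sets of Apoa1, the other 3 had log2 changes with clofibrate from -0.37 to -0.41 and none was called, with adjusted p-values of 0.0525, 0.0552 and 0.0652.

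Apoa2 encodes another major protein of HDL. Its signals were 8818, 8824 and 9162 with permethrin, 6632, 8734 and 8058 with clofibrate, and 10740, 10560 and 10570 in controls. The controls spanned a narrow range above all 6 treated mice, and the permethrin mice also lay above all clofibrate mice. Apoa2 fell 1.37-fold with clofibrate (log2 change -0.45 ± 0.10, limma adjusted p = 0.0206). With permethrin the log2 change was -0.25 ± 0.10 (limma adjusted p = 0.280).

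Apom encodes a lipocalin of HDL that carries sphingosine 1-phosphate. Its signals were 3435, 3340 and 3222 with permethrin, 2149, 3110 and 2173 with clofibrate, and 4145, 3945 and 5196 in controls. The 3 groups did not overlap, with clofibrate lowest. Apom fell 1.80-fold with clofibrate, with means of 2478 ± 548 in clofibrate livers and 4429 ± 672 in controls (log2 change -0.85 ± 0.15, limma adjusted p = 0.00683). With permethrin the mean was 3332 ± 107 (log2 change -0.40 ± 0.15, limma adjusted p = 0.252). The second probe set of Apom gave another order of the treatments. Its log2 change was -0.56 ± 0.16 with clofibrate (adjusted p = 0.0631) and -0.64 ± 0.16 with permethrin (adjusted p = 0.0757). On that probe set permethrin minus clofibrate was -0.08, against 0.45 on the representative one, so the direction between the treatments depends on the probe set.

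Apoa4 encodes an apolipoprotein of chylomicrons and HDL that is also made by the intestine. Its signals were 916, 1138 and 1224 with permethrin, 921, 597 and 810 with clofibrate, and 2779, 2237 and 2680 in controls. Every treated mouse was clearly under the lowest control, and the treated groups overlapped. Apoa4 fell 3.33-fold with clofibrate, to 776 ± 165 against 2566 ± 288 in controls (log2 change -1.74 ± 0.17, limma adjusted p = 0.000186). It fell 2.35-fold with permethrin, to 1093 ± 159 (log2 change -1.23 ± 0.17, limma adjusted p = 0.00399). The difference between the treatments was 0.50 ± 0.17 on the log2 scale (95% interval 0.14 to 0.87, limma adjusted p = 0.250). A second probe set also fell with both treatments. It read 426, 502 and 566 with permethrin (log2 change -1.82 ± 0.21, limma adjusted p = 0.00158). It read 534, 360 and 363 with clofibrate, against 1785, 1306 and 2313 in controls (log2 change -2.08 ± 0.21, limma adjusted p = 0.000283). The probe set with the higher signal is of the manufacturer's x type, in which some probes may also match other sequences, and the second is not.

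Apob encodes the scaffold of VLDL and LDL. Its signals were 6277, 6323 and 5146 with permethrin, 5512, 4569 and 4754 with clofibrate, and 6083, 5669 and 5837 in controls. Clofibrate mice lay below all controls, while permethrin mice lay on both sides of them. The log2 change was -0.25 ± 0.11 with clofibrate (limma adjusted p = 0.223) and 0.01 ± 0.11 with permethrin (limma adjusted p = 0.986), so neither passed. The 95% interval of the permethrin difference was -0.22 to 0.24. A second Apob probe set ranged from 52.7 to 243 with permethrin, 59.8 to 141 with clofibrate and 90.9 to 125 in controls, and its groups overlapped in both comparisons.

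Among the exchangeable proteins that steer lipolysis, Apoc2 encodes the cofactor of lipoprotein lipase. Its signals were 2662, 2524 and 2589 with permethrin, 2284, 2195 and 2624 with clofibrate, and 3210, 3025 and 3691 in controls. All 6 treated mice were below the controls, and the treated groups overlapped. Apoc2 fell 1.40-fold with clofibrate (log2 change -0.48 ± 0.10, limma adjusted p = 0.0205). With permethrin the log2 change was -0.35 ± 0.10 (limma adjusted p = 0.147).

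Apoc3 encodes the inhibitor of lipolysis and of remnant uptake. Its signals were 7381, 7550 and 7667 with permethrin, 6268, 7679 and 7036 with clofibrate, and 9506, 8859 and 9625 in controls. The permethrin mice were tightly grouped within the clofibrate range, and all 6 were below the controls. Apoc3 fell 1.34-fold with clofibrate (log2 change -0.42 ± 0.09, limma adjusted p = 0.0184). With permethrin the log2 change was -0.31 ± 0.09 (limma adjusted p = 0.129), which became a call without clofibrate replicate 1 (adjusted p = 0.0493).

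Apoa5, which promotes lipolysis and is made in the liver, read 6210, 7348 and 6125 with permethrin, 4647, 6670 and 6002 with clofibrate, and 8118, 6896 and 8106 in controls. Clofibrate mice lay below all controls, while permethrin replicate 2 lay above control replicate 2. Its log2 change was -0.43 ± 0.13 with clofibrate (limma adjusted p = 0.0979) and -0.23 ± 0.13 with permethrin (limma adjusted p = 0.494). Apoc1, which interferes with receptor binding and with lipid transfer in plasma, ranged from 7396 to 7748 with permethrin, 6232 to 7688 with clofibrate and 8656 to 9013 in controls. All 6 treated mice were below the controls. Its log2 change was -0.34 ± 0.09 with clofibrate (limma adjusted p = 0.0510), just outside the threshold, and -0.23 ± 0.09 with permethrin (limma adjusted p = 0.269).

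Apoe encodes the ligand by which remnants are taken up through the LDL receptor and its relatives. Its signals were 8870, 9540 and 8915 with permethrin, 6520, 8605 and 7856 with clofibrate, and 10452, 10148 and 10359 in controls. The 3 groups did not overlap. Apoe fell 1.36-fold with clofibrate (log2 change -0.44 ± 0.10, limma adjusted p = 0.0262). With permethrin the log2 change was -0.18 ± 0.10 (limma adjusted p = 0.471). Macrophages also make Apoe. Of 11 macrophage markers 0 were called with clofibrate, where 7.02% of all genes were called, and 0 with permethrin, where 2.13% were. Their part in the Apoe values was not tested.

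**Figure D2:**
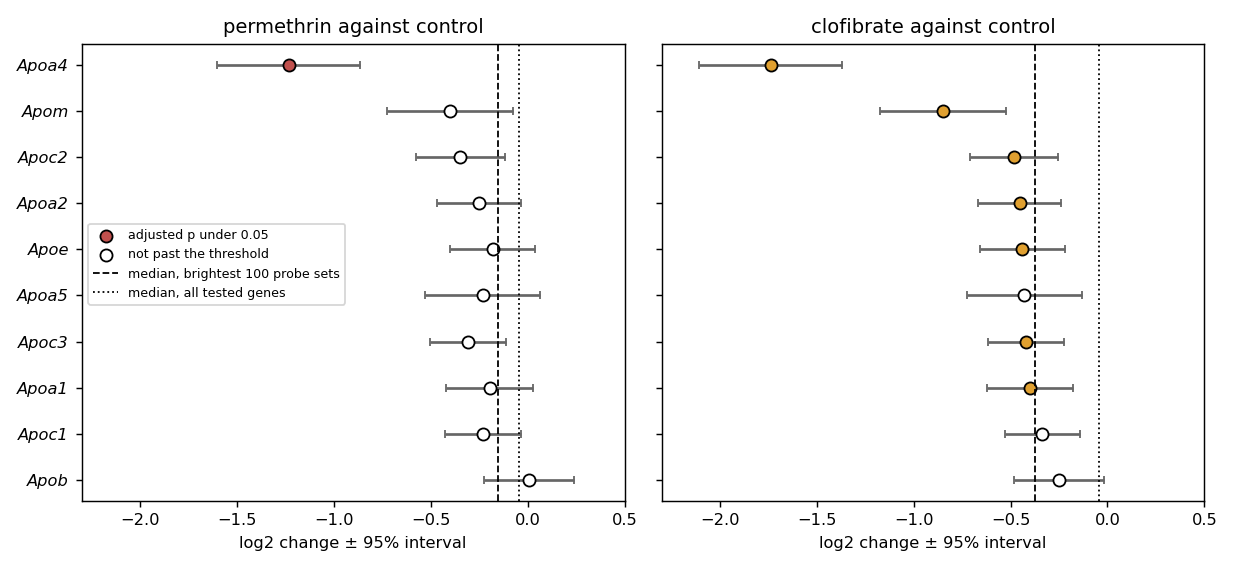
Log2 change of each apolipoprotein with its 95% interval, for permethrin against control (left) and clofibrate against control (right), where filled points passed an adjusted p of 0.05 and vertical lines give the medians of the brightest 100 probe sets (dashed) and of all tested genes (dotted). Apoa4 and Apom lie away from the dashed line with clofibrate, where the other 8 members lie between -0.25 and -0.48 around its -0.37.

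Of the brightest 1% of probe sets by mean signal, 82.9% had a lower mean log2 signal with clofibrate. The 7 members in the brightest 1% on every array had a median log2 change of -0.42 with clofibrate, with 4 called, and of -0.23 with permethrin, with 0 called. The 450 probe sets of the brightest 1% by mean signal had medians of -0.25 with clofibrate and -0.11 with permethrin, closer to 0 than the members' medians. The 100 brightest probe sets, all with a mean signal of 7177 or more, hold 8 probe sets of the members. The other 92 had a median log2 change of -0.37 with clofibrate, 84 of them were lower, and 50 were called lower and 0 higher. With permethrin their median was -0.15, with 76 of 92 lower, 1 called lower and 1 called higher. Apoa5 and Apob, with mean signals below 7177, are not among the 100. The part that signals near the top of the range play in these values was not tested.

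**Figure D3:**
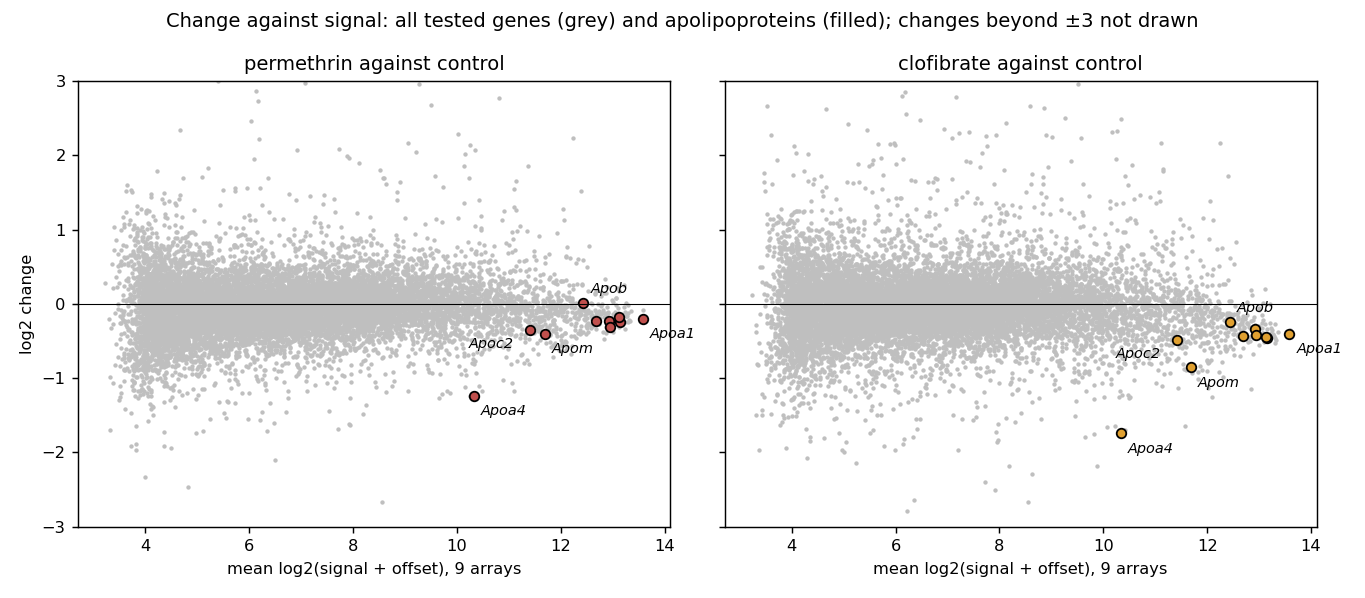
Log2 change against mean log2 signal for the 12477 tested genes (grey) and the 10 apolipoproteins (filled), for permethrin against control (left) and clofibrate against control (right), with the change axis limited to ±3. At the bright end most grey points lie below 0 with clofibrate, where the brightest 100 probe sets had a median of -0.37, and Apoa4 lies far lower at -1.74.

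Of the 7 calls with clofibrate, 4 to 6 were lost under other scalings of the arrays. Quantile normalization left 3 of 10 members called (Apoa4, Apoc2 and Apom) and cyclic loess 2 (Apoa4 and Apom). Centring each array on its median left the same 3 as quantile normalization, and scaling to the hybridization controls left 1 (Apoa4). Under the deposited scaling 876 of all genes were called with clofibrate, 474 of them lower. These counts were 753 and 379 with median centring, 799 and 404 with quantile normalization, and 777 and 358 with cyclic loess. Scaling to the hybridization controls gave 1103, 88 of them lower. Under median centring the members' median log2 change was -0.42, about as large as the -0.43 of the deposited scaling. It was -0.15 under quantile normalization, -0.23 under cyclic loess and -0.10 under scaling to the hybridization controls. That last scaling moved the median of all genes by 0.32 with clofibrate and by 0.14 with permethrin, and relative to it the members' median was -0.37 with clofibrate. Apoa1 had a log2 change of 0 under quantile normalization, since its ranks were 3, 1 and 2 on the clofibrate arrays and 2, 3 and 1 on the control arrays, and quantile normalization gives equal ranks equal values. Apoa4 was called with both treatments under all 24 refits of the model, at -1.40 to -1.91 with clofibrate and -1.09 to -1.53 with permethrin. Apom was called with clofibrate in 23 of 24, the exception being scaling to the hybridization controls (adjusted p = 0.0514).

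**Figure D4:**
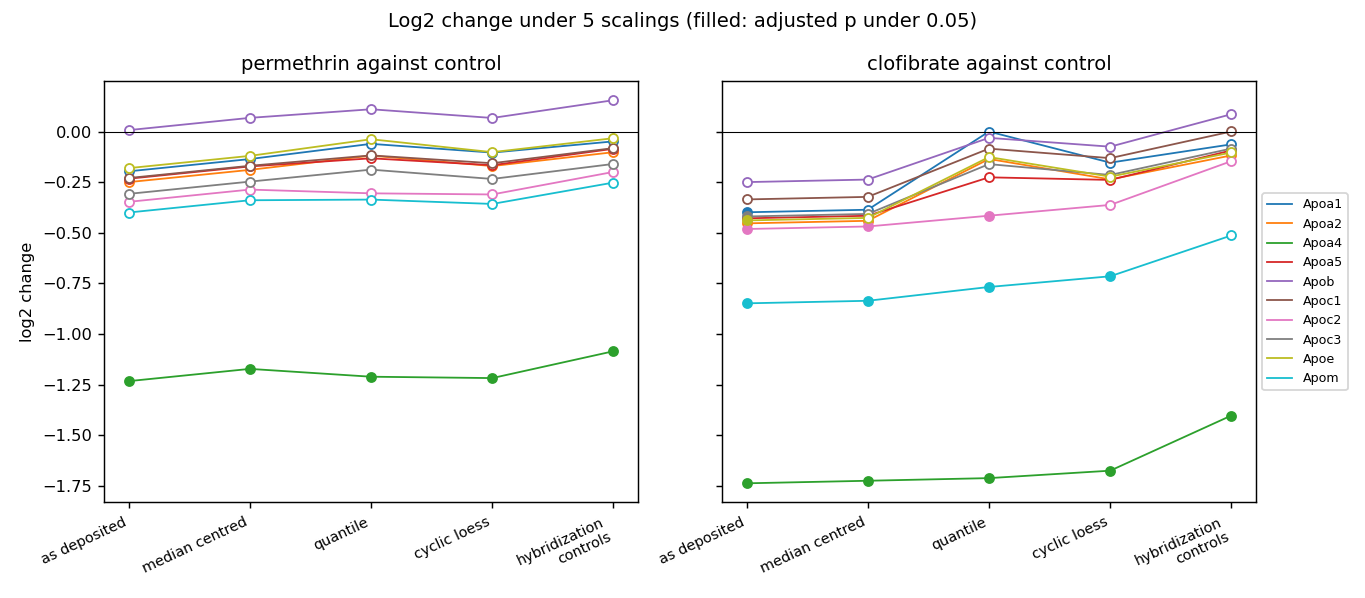
Log2 change of each apolipoprotein under 5 scalings of the arrays, for permethrin against control (left) and clofibrate against control (right), with filled points for an adjusted p under 0.05. Apoa4 stays between -1.40 and -1.74 with clofibrate, while most of the brighter members move close to 0 under quantile normalization and under scaling to the hybridization controls.

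Leaving out single mice moved the clofibrate calls too, in members and over all genes. Clofibrate replicate 1 had the lowest signal of all 9 arrays for 7 members and clofibrate replicate 2 for the other 3. The median coefficient of variation over the members was 3.66% with permethrin, 13.7% with clofibrate and 4.24% in controls. The number of members called with clofibrate was 2 without control replicate 1, 4 without control replicate 2, 2 without control replicate 3 and 3 without clofibrate replicate 3. It was 6 without clofibrate replicate 1, 8 without clofibrate replicate 2 and 6 without any 1 of the permethrin replicates. Over all 12477 genes the clofibrate calls fell from 876 to 473, 558 and 496 without control replicates 1, 2 and 3. They were 828, 667 and 430 without clofibrate replicates 1, 2 and 3, and 827, 889 and 808 without permethrin replicates 1, 2 and 3. Apoa4 and Apom were called whichever array was left out.

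PPAR alpha targets served as a check of the fibrate treatment. For comparison, 3.22% of all genes were called higher with clofibrate and 1.28% with permethrin. Of 14 tested PPAR alpha target genes, 12 were higher and 1 lower with clofibrate, at a median log2 change of 2.22, and 10 were higher and 0 lower with permethrin, at a median of 1.59. Acot1, a thioesterase of fatty acyl-CoA, averaged 2236 ± 307 with permethrin, 4517 ± 114 with clofibrate and 263 ± 44.8 in controls. Vnn1, a pantetheinase, averaged 2332 ± 613 with permethrin, 4669 ± 305 with clofibrate and 201 ± 43.9 in controls. Acot2, a related thioesterase, averaged 714 ± 322, 1943 ± 409 and 158 ± 13.4 in the same order. Crat, carnitine acetyltransferase, had a log2 change of 2.67 with clofibrate, and Pex11a, a peroxisome division factor, had 2.07 with permethrin. The target called lower was Fabp1, the liver fatty acid binding protein, at 10670 with clofibrate against 13579 in controls (log2 change -0.35, limma adjusted p = 0.0473), and the call was lost under each of the 4 other scalings. The log2 change of Fabp1 was -0.34 under median centring, 0.02 under quantile normalization, -0.11 under cyclic loess and -0.02 under scaling to the hybridization controls.

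Other genes of apolipoproteins and HDL enzymes were tested as a list of 19, of which 17 passed the filter. The list was chosen by name, with earlier results of these data known. With clofibrate 5 were lower and 0 higher, at a median of -0.28, where 3.8% of all genes were called lower. With permethrin 0 were called, at a median of -0.24, where 2.13% of all genes were called. Apof, which encodes an inhibitor of lipid transfer, had means of 3536 ± 231 with clofibrate and 5511 ± 263 in controls (log2 change -0.64, limma adjusted p = 0.0021). Apon, a mouse apolipoprotein gene, had 3616 ± 298 and 5141 ± 362 in the same order (log2 change -0.51, adjusted p = 0.0091). Pon1, the HDL-bound paraoxonase, had a log2 change of -0.46 and Apoh, beta-2-glycoprotein, of -0.39. Under scaling to the hybridization controls 0 of the 17 were lower and 1 higher with clofibrate. That scaling called 88 of all 12477 genes lower and 1015 higher. Relative to the median of all genes, the median of the 17 was -0.23 both under that scaling and under the deposited one.

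Genes that assemble and secrete the particles were called in both directions with clofibrate. Of 24 tested, 2 were higher and 2 lower with clofibrate, and 1 higher and 0 lower with permethrin. Among all genes 3.22% were called higher and 3.8% lower with clofibrate, and 1.28% and 0.85% with permethrin. Fitm2, needed for lipid droplet formation, was called higher with both treatments, at 595 ± 107 with permethrin, 491 ± 125 with clofibrate and 167 ± 23.9 in controls. A1cf, a cofactor of the enzyme that edits the Apob message, had a log2 change of 0.99 with clofibrate (limma adjusted p = 0.0239). Sec24d, a coat protein of secretory vesicles, had -0.60 (adjusted p = 0.0147) and P4hb, a subunit of the transfer protein complex, had -0.43 (adjusted p = 0.017). Mttp, the lipid-loading subunit of that complex, averaged 2387 ± 479 with permethrin, 2730 ± 255 with clofibrate and 1770 ± 411 in controls and was not called (adjusted p = 0.324 and 0.0713).

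Receptors changed in both directions. Of 13 tested, 2 were higher and 3 lower with clofibrate, and 1 higher and 0 lower with permethrin. The shares of all genes were 3.22% higher and 3.8% lower with clofibrate, and 1.28% and 0.85% with permethrin. Scarb1, the HDL receptor SR-BI, averaged 542 ± 100 with clofibrate and 989 ± 196 in controls (log2 change -0.86, limma adjusted p = 0.0175). Sdc1, a proteoglycan that captures remnants, averaged 2070 ± 135 with clofibrate and 3301 ± 437 in controls (log2 change -0.67, adjusted p = 0.0053). Amn, which with cubilin forms a receptor for HDL in other epithelia, averaged 71.7 ± 6.17 with clofibrate and 22.2 ± 21.3 in controls (adjusted p = 0.0469). This call rests on dim control signals of 10.8, 9.04 and 46.8, where the filter on dim probe sets was at 15.6. Cd36, a fatty acid carrier that also binds lipoproteins, had log2 changes of 4.49 with clofibrate and 3.64 with permethrin. Under scaling to the hybridization controls 2 receptors were higher and 0 lower with clofibrate. That scaling called 1015 of all 12477 genes higher and 88 lower.

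Enzymes and transfer proteins that remodel particles included 2 of 16 that were higher with both treatments and 0 that were lower. The shares of all genes called higher were 3.22% with clofibrate and 1.28% with permethrin. Pltp, which moves phospholipid between particles, averaged 3295 ± 1730 with permethrin, 4884 ± 1004 with clofibrate and 430 ± 112 in controls. Lpl, lipoprotein lipase, averaged 1340 ± 512 with permethrin, 1664 ± 772 with clofibrate and 208 ± 85.0 in controls. Of 26 transcription regulators, 0 were called with clofibrate, where 7.02% of all genes were called. The share of all genes called with permethrin was 2.13%. With permethrin 1 was lower, Foxa3, at 214 ± 5.83 against 485 ± 164 in controls (log2 change -1.12, limma adjusted p = 0.0433), and the call was lost at a change about as large under median centring (-1.06, adjusted p = 0.0717) and under scaling to the hybridization controls (-0.97, adjusted p = 0.0709). Ppara itself averaged 844 ± 98.3 with permethrin, 1143 ± 127 with clofibrate and 844 ± 104 in controls, and was not called in either comparison.

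Other abundant plasma proteins of hepatocytes moved by amounts like those of the apolipoproteins. Of 20 tested, 16 were lower and 0 higher with clofibrate, at a median of -0.42, where 3.8% of all genes were called lower. With permethrin 0 of the 20 were called, at a median of -0.24, where 2.13% of all genes were called. With clofibrate the median was -0.41 under median centring, with 7 called, and -0.21 under cyclic loess, with 2 called. It was -0.14 under quantile normalization, with 1 called, and -0.08 under scaling to the hybridization controls, with 0 called. Relative to the median of all genes it was -0.36 under that last scaling, against -0.37 under the deposited scaling. Ahsg, fetuin-A, had the largest log2 change among those called, -0.56 (limma adjusted p = 0.0183), followed by Itih4 at -0.50, Plg, plasminogen, at -0.46 and Fetub at -0.44. Alb, albumin, averaged 8509 ± 370 with permethrin, 7033 ± 825 with clofibrate and 9351 ± 274 in controls. The summed signal of 8 hepatocyte markers was 50674 to 53188 with permethrin, 38549 to 47030 with clofibrate and 52273 to 61267 in controls, and 2 of the 8 were called lower with clofibrate. Their part in the apolipoprotein differences was not tested.

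The intestine is the other main source of Apoa4 and Apob. Of 9 intestinal markers on the array, 6 (Vil1, Cdh17, Muc2, Lct, Cdx1 and Cdx2) did not pass the filter on dim probe sets. The summed signal of the 9 was 1505 to 1932 with permethrin, 1970 to 2357 with clofibrate and 977 to 1371 in controls. Every treated mouse was above every control. Fabp2, an intestinal fatty acid binding protein, gave most of that sum, at 1374 ± 168 with permethrin, 1644 ± 185 with clofibrate and 839 ± 221 in controls. The sum thus rests mostly on 1 gene. The part of intestinal tissue in the Apoa4 and Apob values was not tested. Of 4 tested pancreas markers, 1, the elastase gene Cela1, was called lower with both treatments. With clofibrate 3 of the 4 had a log2 change below 0 and 1 above 0, and with permethrin 4 were below 0. Among all genes 3.8% were called lower with clofibrate and 0.85% with permethrin. The summed signal of 7 was 205 to 339 with permethrin, 242 to 281 with clofibrate and 1195 to 1493 in controls. That sum includes Cpa1, Cpb1 and Ctrb1, which did not pass the filter on dim probe sets. The sum was lower in the same mice as Apoa4, and the part of pancreas tissue in that result was not tested.

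The genes most like each called member were found by Pearson correlation of log2 signals over the 9 arrays, which share the group differences and the array scaling. Apoa4 was most like Dmd (r = 0.987, n = 9), B2m (0.979) and Stra6l (0.976). Stra6l, a retinol-binding protein receptor, averaged 1062 with permethrin, 799 with clofibrate and 1684 in controls and was called lower with both treatments. Apoc2 was most like Enho (0.972), which encodes the hepatic peptide adropin and averaged 240 with permethrin, 149 with clofibrate and 685 in controls. Apom was most like Afm (0.981), a vitamin E carrier of plasma, Pon1 (0.977) and Serpind1 (0.973). For Apoa1, Apoa2, Apoc3 and Apoe all 3 nearest genes had r of 0.976 or more, among them Apoh, Fga, Serpinc1, Plg, F2, Cyp3a11 and Bhmt.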

How the data were processed

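Total liver RNA of 9 mice (5 ug each) was labelled and hybridized to Affymetrix expression arrays. The deposited values are signal intensities on a linear scale, calculated by the authors with MAS5, per the submitters' processing notes, and each array's trimmed mean is near 100 in the deposited values. Scanner files were not used here. The table holds 45101 probe sets, of which 64 are controls and 34945 carry 1 gene symbol in the platform annotation. Intensities were used as log2(signal + 3.35), the offset being the 20th percentile of all signals. A probe set was tested if its signal exceeded 15.6, the median of all signals, on at least 3 arrays. One linear model over the 3 groups was fitted with limma 3.58.1 in R 4.3.3, with an intensity trend in the variance and Benjamini-Hochberg adjustment over 24548 probe sets. The limma script was tested on simulated data.

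Named genes were the 10 members, up to 4 called genes per list and comparison with the largest change, and the 3 genes most correlated with each called member. Mttp, Ppara, Alb, Fabp1 and Fabp2 are named outside that rule, after their values were seen. The members and lists were chosen with earlier results of these data known. Labels call the mice of a group biological replicates. The sample titles do not say whether replicate numbers pair mice. Deviations from group means correlated at -0.109 to 0.113 between same-numbered mice of different groups. These values were not compared with those of differently numbered mice, so they cannot exclude a pairing. At most 1 signal was identical between any pair of arrays. The 3 mice per group limit the precision. Alternatives covered the offset, scaling, filter, variance model, array weights, probe set choice, replicate block and leaving out each array.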

Additional observations from a re-analysis of the deposited data

How the results depend on the processing

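With clofibrate 7 members were called. The count was 3 with median centring, 3 with quantile normalization, 2 with cyclic loess, 1 with scaling to the hybridization controls, 3 with no filter, 2 with no intensity trend and 2 when a 1.5-fold change was also required. The members' median was -0.43 with no filter and with no intensity trend, and -0.42 with median centring. The count was 8, with Apoc1 added, with offsets of 16 or 64, the mean-signal filter, the robust variance model or array weights. It ranged from 2 to 8 when 1 array was left out. With permethrin the count was 1, and 1 to 2 when 1 array was left out. Between the treatments it was 0 throughout. With the replicate block 6 members were called with clofibrate (Apoa1 was lost), 1 with permethrin and 0 between the treatments. Using the median of each gene's tested probe sets also left 6 with clofibrate (Apoa1 was lost). Fitting only the 2 groups compared left 5 with clofibrate (Apoa1 and Apoe were lost). Some values changed sign, none of them called. Under scaling to the hybridization controls, clofibrate against control was 0.0858 for Apob and 0.000336 for Apoc1, and permethrin against clofibrate was -0.0821 for Apoc1, -0.0533 for Apoc2 and -0.0760 for Apoc3. Under quantile normalization permethrin against clofibrate was -0.0607 for Apoa1, -0.0334 for Apoc1 and -0.0273 for Apoc3, under cyclic loess -0.0251 for Apoc1 and -0.0197 for Apoc3, and on the second probe set -0.0773 for Apom. Apob with permethrin was -0.0147 with array weights and -0.0442 to 0.104 when 1 array was left out, below 0 without control replicate 2, permethrin replicate 1 or permethrin replicate 2. The cause was not tested. Over all genes, 876 were called with clofibrate, 266 with permethrin and 92 between the treatments. These were 398, 80 and 10 with no intensity trend, 1497, 313 and 226 with array weights, and 1103, 166 and 43 with scaling to the hybridization controls, where 92% of the clofibrate calls were higher (1015 of 1103, against 402 of 876). Fitting only the 2 groups compared gave 798, 292 and 48 in the same order. The counts were 657, 202 and 72 with no filter, and 753, 243 and 94 with median centring. Quantile normalization gave 799, 262 and 104, and cyclic loess gave 777, 275 and 93. Leaving out 1 array gave 430 to 889, 108 to 318 and 17 to 119.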
